A study of Mus musculus with 12 samples.

Results

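The genes described here are 6 inhibitors of cyclin-dependent kinases (Cdkn1a, Cdkn1b, Cdkn2a, Cdkn2b, Cdkn2c and Cdkn2d) and 4 genes of the p53 pathway (Trp53, Mdm2, Ccng1 and Gadd45a). They were taken by gene symbol, with no threshold on a value, but with earlier results of these data known. All 10 were among the 48709 genes counted. The RNA came from mouse primary hippocampal cultures, prepared at embryonic day 17 from CD1 embryos. At day 10 in vitro the cultures received lipid nanoparticles loaded with either the mimic of miR-148a-3p or an oligonucleotide that served as negative control. By the paper's methods both groups also received ApoE4. All cultures were harvested at day 12, after 48 h. Each group had 6 samples, and no untreated culture was analysed here. Hippocampi of several embryos were pooled, and the labels do not say that the 6 samples of a group were separate cultures, so p-values measure the spread between these samples, which may be technical. The cultures were described as neuronal by the labels but hold glia as well, and in such bulk samples fewer cells of a type and less RNA per cell cannot be told apart.

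Cyclin-dependent kinases drive the cell cycle when bound by a cyclin. Inhibitors of the Cip/Kip family (Cdkn1a, Cdkn1b) bind whole kinase and cyclin complexes, whereas inhibitors of the Ink4 family (Cdkn2a to Cdkn2d) bind the kinases Cdk4 and Cdk6. The transcription factor p53, encoded by Trp53, is held at a low level by the ubiquitin ligase Mdm2 and, once stabilised, raises Cdkn1a, Mdm2, Ccng1 and Gadd45a among many other genes. In neurons, which have left the cell cycle, several of these inhibitors stay expressed, while glia and their precursors can still divide.

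A microRNA recognises transcripts mainly through its seed, bases 2 to 8. The guide strand of the mimic was identical to mouse miR-148a-3p in RefSeq, which lies in the microRNA gene Mir148a at chr6:51269829-51269850 on the minus strand of GRCm38.p6. The 2 oligonucleotides of the study's reagent list are shown because their seeds are what was delivered, with the seed in capitals.
miR-148a-3p mimic: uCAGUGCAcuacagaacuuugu
negative control: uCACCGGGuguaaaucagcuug

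The longest 3′ untranslated region (UTR) of each gene was searched for a match to seed bases 2 to 8, which reads TGCACTG in the transcript, or to bases 2 to 7 with an A after them, which reads GCACTGA; both in 1 place make an 8-base site. A site was found in 4 of the 10 genes, Cdkn1b, Cdkn2b, Cdkn2d and Gadd45a, 1 in each, against 21.9% of the 15082 tested genes that had an annotated 3′ UTR. The 4 sites are shown, in the sense of the transcript, as the places where the mimic could pair with these transcripts, with the matching bases in capitals.
Gadd45a: taactgaaccaaatTGCACTGAa
Cdkn2d: ggttcagtttcctcTGCACTGgg
Cdkn1b: ggacatcctgtataaGCACTGAg
Cdkn2b: gagagtagatgagagGCACTGAa

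Gadd45a held the only 8-base site, a kind present in 4.15% of the genes, at bases 32 to 39 after the stop codon (window chr6:67035619-67035641, minus strand, GRCm38). The site of Cdkn2d matched seed bases 2 to 8 and lay at bases 645 to 651 (chr9:21288720-21288742, minus strand). The sites of Cdkn1b at bases 2285 to 2291 (chr6:134924344-134924366, plus strand) and of Cdkn2b at bases 442 to 448 (chr4:89306605-89306627, minus strand) matched bases 2 to 7 and the A. No site was found in the longest UTR of Cdkn1a, Cdkn2a, Cdkn2c, Trp53, Mdm2 or Ccng1, and the control oligonucleotide's seed had no site in any of the 10 genes. The study's own list of predicted miR-148a-3p targets holds Cdkn1b and Gadd45a. A match is a description of the sequence and does not show that the site was used.

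Library totals ranged from 20018234 to 37149112 counts, with control replicates 1 and 2 the shallowest. Both also stood apart over all genes, with a chi-square per degree of freedom of 28.2 to 32.7 for replicate 1 and 15 to 17.2 for replicate 2 against control replicates 4 to 6, which differed among each other by 1.61 to 3.62. Control replicate 1 stood apart in the summed markers of oligodendrocyte precursors as well, as given below. MicroRNAs are not captured by the poly(A) libraries, and the gene Mir148a was listed at 0 in all 12 libraries, so the level of the mimic cannot be read from these libraries. Neuron markers were high in every library, with a summed level per length of 1020 to 1070 CPM per kb in control and 940 to 974 in mimic. CPM are counts scaled to a library total of 1000000. All 10 genes passed the filter, which asked for 5 counts or more in 6 or more of the 12 libraries and left 18847 genes to test. All adjusted p-values below are from edgeR's quasi-likelihood test of 6 mimic against 6 control samples with Benjamini-Hochberg adjustment over these genes.

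Cdkn1a, Cdkn2c and Mdm2 rose with the mimic, Cdkn2b fell, and the other 6 genes did not pass the test. Thus 3 of 10 were called higher, where 11.5% of all tested genes were, and 1 of 10 was called lower, where 10.7% were. In either direction 22.2% of all genes were called. These shares only describe the 10 genes, which were chosen with earlier results of these data known. In the 4 called genes the ranges of the 6 mimic and the 6 control libraries lay apart, which was so for 13.3% of all tested genes and for none of the other 6. The median log2 fold change was -0.01 over the 10 genes and -0.01 over all genes. The median size of the change regardless of direction was 0.22 over the 10 genes and 0.12 over all genes.

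**Figure D1:**
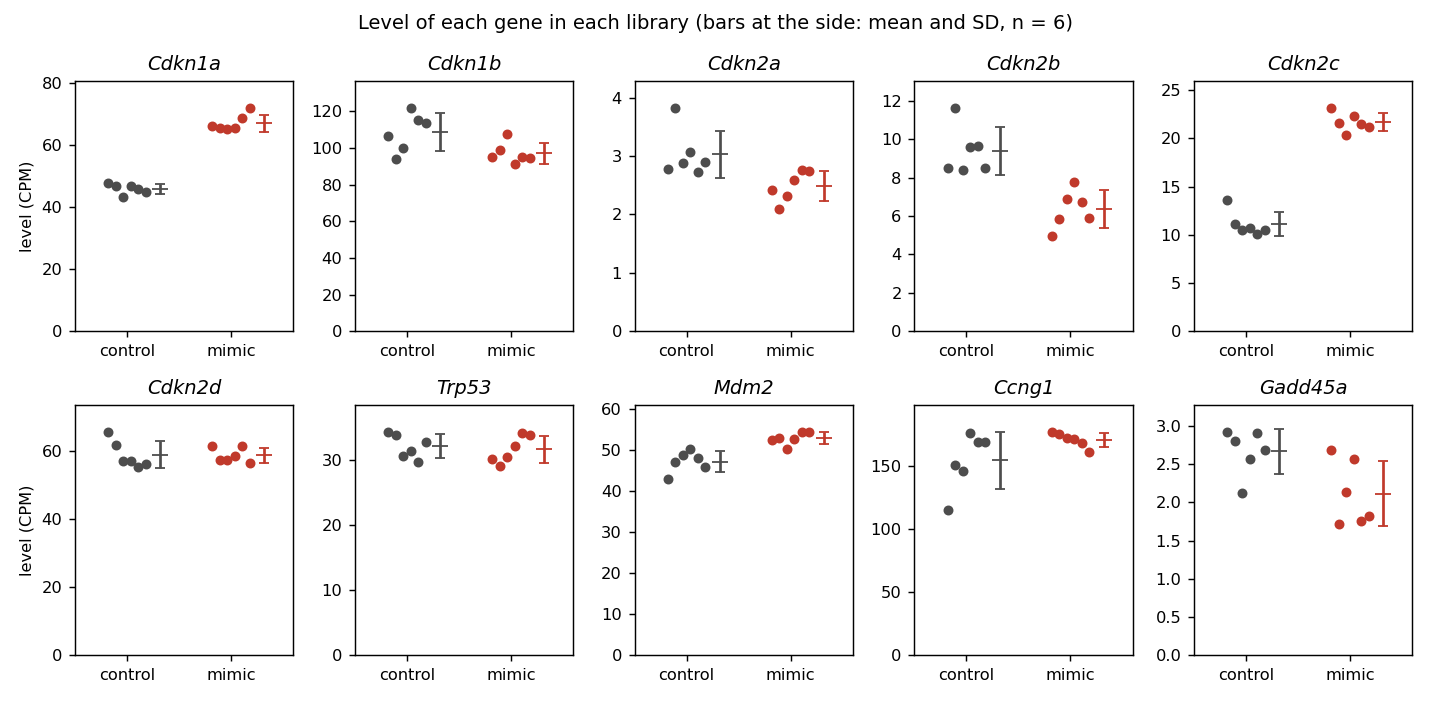
Level in CPM (y axis, from 0, a separate scale for each gene) of the 10 genes in the 6 control (grey) and 6 mimic (red) libraries, 1 point for each library in order of replicate number, with the mean and SD beside them. Cdkn1a, Cdkn2c and Mdm2 lie higher in all mimic libraries and Cdkn2b lower, while the groups overlap in the other 6 genes.

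Cdkn1a, which encodes p21 and is the classic p53 target among the inhibitors, varied least among the control libraries, with a coefficient of variation of 3.59%. In control its level ran from 43.1 over a median of 46.1 to 47.6 CPM, and in mimic from 65.0 over 65.6 to 71.9 CPM. Every mimic library thus lay well above every control library. The means were 45.8 ± 1.64 CPM in control and 67.0 ± 2.73 in mimic (SD, n = 6 each). The log2 fold change was 0.55 with a standard error (SE) of 0.04 (adjusted p = 1.35e-08). Only 4.23% of all tested genes had a larger rise. Cdkn1a lies at chr17:29090976-29100727 on the plus strand, and 273 of its 3553 exon bases are shared with a gene on the opposite strand, AC167363.2, which was not counted separately.

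Cdkn1b encodes p27, a Cip/Kip inhibitor known for holding differentiated cells out of the cycle. Its level ran from 94.1 over a median of 110 to 122 CPM in control and from 91.2 over 95.1 to 107 CPM in mimic. All 6 mimic libraries lay under the control mean, but 5 of them lay within the control range. The log2 fold change was -0.16 (SE 0.06, adjusted p = 0.0526), and its 95% interval ran from -0.28 to -0.05. This value sat at the threshold. The adjusted p was 0.0135 without control replicate 2, 0.0388 without control replicate 3 and 0.0271 without mimic replicate 3, and it was 0.0441 with DESeq2. With the other 9 libraries left out 1 at a time it stayed above the threshold, up to 0.115.

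Cdkn2c, the Ink4 inhibitor p18, changed the most. Its level ran from 10.1 over a median of 10.6 to 13.6 CPM in control and from 20.4 over 21.6 to 23.2 CPM in mimic. The highest control library, replicate 1, was still far below the lowest mimic library. Means were 11.1 ± 1.26 and 21.7 ± 0.97 CPM (SD, n = 6 each), a ratio of 1.96, and the log2 fold change was 0.98 (SE 0.06, adjusted p = 6.6e-09). A larger rise was seen in 0.944% of all tested genes. Without control replicate 1 the log2 fold change was 1.04.

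Cdkn2b, the Ink4 inhibitor p15, known for its induction by TGF-beta, changed the other way. It ran from 8.41 over a median of 9.07 to 11.6 CPM in control and from 4.96 over 6.32 to 7.79 CPM in mimic. The groups lay apart by a small margin, 7.79 against 8.41 CPM. Means were 9.38 ± 1.24 and 6.35 ± 0.99 CPM (SD, n = 6 each), and the log2 fold change was -0.56 (SE 0.10, adjusted p = 0.000651). A larger fall was seen in 3.32% of all tested genes.

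Cdkn2a yields the transcripts of the Ink4 inhibitor p16 and of p19Arf, a protein that binds Mdm2. They share 575 bases, against 277 and 320 bases found in only 1 of the 2, so a count for the gene does not separate them. The gene was weakly expressed, with 55 to 107 counts a library. Levels ran from 2.72 over a median of 2.89 to 3.82 CPM in control and from 2.10 over 2.51 to 2.76 CPM in mimic. The lowest 4 mimic libraries lay under every control library and the other 2 within the control range. The log2 fold change was -0.28 (SE 0.10, adjusted p = 0.0602), with an interval from -0.48 to -0.08. The adjusted p was 0.0451 without control replicate 1 and above the threshold, up to 0.143, with each of the other 11 libraries left out. Counting error alone gives a coefficient of variation of 11.1% at this depth, and the libraries varied by 13.4% in control and 10.4% in mimic. Cdkn2a and Cdkn2b are neighbours on the minus strand of chromosome 4, 11645 bases apart, and Cdkn2c lies 20.3 megabases further along.

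Cdkn2d, the Ink4 inhibitor p19Ink4d, known for its expression in postmitotic neurons, ran from 55.3 over a median of 57.0 to 65.6 CPM in control and from 56.3 over 57.9 to 61.4 CPM in mimic. The groups overlapped throughout, and the means were 58.8 ± 3.99 and 58.6 ± 2.18 CPM (SD, n = 6 each). The log2 fold change of -0.00 (SE 0.04, adjusted p = 0.994) had an interval from -0.09 to 0.09. Its highest library was control replicate 1.

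Trp53 ran from 29.7 over a median of 32.1 to 34.4 CPM in control and from 29.2 over 31.3 to 34.2 CPM in mimic. The ranges were almost the same. Its log2 fold change was -0.02 (SE 0.05, adjusted p = 0.849), with an interval from -0.12 to 0.08. The processed pseudogene Trp53-ps was listed at 0 in every library.

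Mdm2, the ligase that marks p53 for degradation and is itself a p53 target, rose by a small amount. It ran from 42.9 over a median of 47.6 to 50.3 CPM in control and from 50.4 over 52.9 to 54.6 CPM in mimic. The groups touched without overlapping, 50.3 against 50.4 CPM. The means were 47.2 ± 2.60 and 52.98 ± 1.53 CPM (SD, n = 6 each), a difference of 12.2%, and the log2 fold change was 0.16 (SE 0.04, adjusted p = 0.00636). Control replicate 1 was the lowest library. A larger rise was seen in 18.3% of all tested genes.

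Ccng1, which encodes cyclin G1, a p53 target that acts on Mdm2 through a phosphatase, ran from 115 over a median of 160 to 176 CPM in control and from 161 over 172 to 177 CPM in mimic. The control libraries were spread out, with a coefficient of variation of 14.6% against 3.32% in mimic, and control replicate 1 held the lowest value. The log2 fold change was 0.14 (SE 0.08, adjusted p = 0.22), and it was 0.07 without that library.

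Gadd45a, a stress sensor induced by p53 and by other signals after growth arrest or DNA damage, had the fewest counts, 52 to 95 a library. It ran from 2.13 over a median of 2.74 to 2.93 CPM in control and from 1.71 over 1.99 to 2.68 CPM in mimic. The mimic libraries fell on both sides of the lowest control library, 3 below it and 3 within the control range. The log2 fold change was -0.32 (SE 0.13, adjusted p = 0.0837), with an interval from -0.57 to -0.07. The adjusted p was 0.0431 without control replicate 3 and 0.0374 without mimic replicate 1, and above the threshold, up to 0.183, with each of the other 10 left out. Of its 1764 exon bases 337 are shared with E230016M11Rik on the opposite strand, and whether the counting used the strand is not stated. That gene had 83.5 counts on average, more than the 70.7 of Gadd45a, and a log2 fold change of 0.04 (adjusted p = 0.814).

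**Figure D2:**
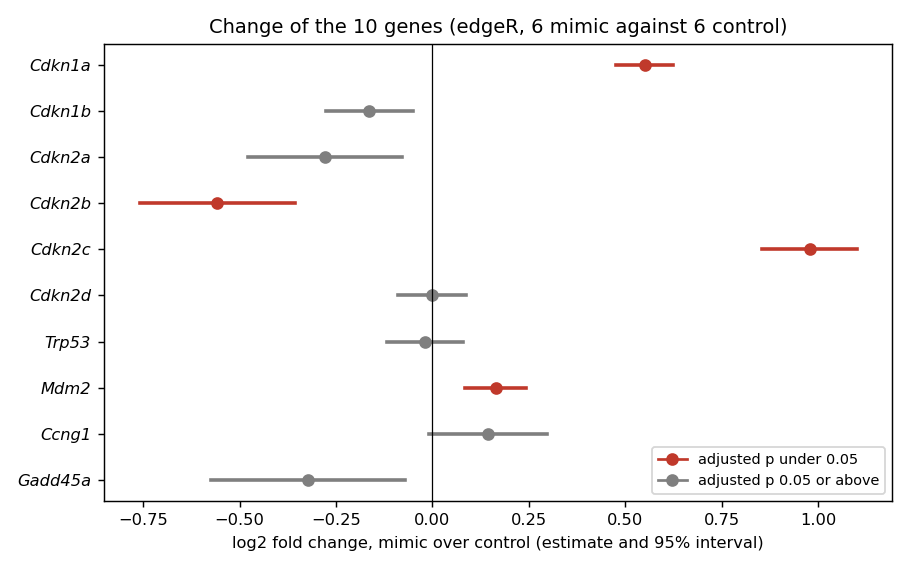
Log2 fold change of mimic over control (x axis) for the 10 genes, each point an edgeR estimate with a line for its 95% interval, in red where the adjusted p was under 0.05. Cdkn2c at 0.98 and Cdkn1a at 0.55 lie far to the right, Mdm2 at 0.16 close to 0 on the same side and Cdkn2b at -0.56 to the left.

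Of the 4 genes with a miR-148a-3p site, Cdkn2b, Gadd45a and Cdkn1b had a log2 fold change under 0, of which Cdkn2b alone was called, and that of Cdkn2d was -0.00 and ran from -0.02 to 0.06 over the alternatives. Among the 6 without a site, 4 were above 0 and 2 below, and the 3 called genes were all higher. The 8-base site of Gadd45a went with -0.32, and the 7-base sites went with -0.56 in Cdkn2b, -0.16 in Cdkn1b and -0.00 in Cdkn2d. Over all genes tested, 28.8% of the 626 with an 8-base site and 17.6% of the 1055 whose best site was that of Cdkn1b and Cdkn2b were called lower, as were 16.6% of the 1627 whose best site was that of Cdkn2d, against 10.8% of the 11774 without a site.

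Promoters were searched because Cdkn1a and Mdm2, both p53 targets, rose together. The windows are the 250 bases before a RefSeq gene start on GRCm38.p6, and the p53 decamer, a unit of the p53 binding element, was searched by its consensus on both strands. It was found in 6 of the 13 windows of the 10 genes, in 1 window each of Cdkn1a, Cdkn2d, Trp53, Mdm2, Ccng1 and Gadd45a, and in 7.13% of all 32851 windows. Also searched on both strands were the GC box GGGCGG (32.7% of all windows), the CCAAT box CCAAT (33.8%), the TATA box TATAAA (12.4%), the cell cycle homology region TTTGAA (16.0%) and the E2F-type words TTTCGCG (0.703%), TTTGGCG (1.26%) and TTTCCCG (2.75%). The windows of Cdkn1a (the first of 2, chr17:29090729-29090978, plus strand) and of Mdm2 (chr10:117710759-117711008, minus strand) are shown, with the matches in capitals.
Cdkn1a: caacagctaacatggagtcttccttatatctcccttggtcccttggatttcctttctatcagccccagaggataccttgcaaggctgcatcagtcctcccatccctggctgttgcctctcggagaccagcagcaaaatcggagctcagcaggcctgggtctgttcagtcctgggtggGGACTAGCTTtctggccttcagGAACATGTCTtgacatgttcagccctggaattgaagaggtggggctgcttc
Mdm2: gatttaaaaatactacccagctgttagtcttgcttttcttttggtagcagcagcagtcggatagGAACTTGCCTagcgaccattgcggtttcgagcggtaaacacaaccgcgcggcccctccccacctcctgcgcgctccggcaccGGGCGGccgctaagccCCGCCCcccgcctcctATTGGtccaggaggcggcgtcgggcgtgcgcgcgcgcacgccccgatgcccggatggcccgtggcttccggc

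In the Cdkn1a window both capital stretches are p53 decamers, from -73 to -64 and from -51 to -42 relative to the start. In the Mdm2 window the first is a p53 decamer, from -186 to -177, followed by 2 GC boxes, the second of them on the other strand, and a CCAAT box read on the other strand. No matches overlapped in these 2 windows. The second window of Cdkn1a (chr17:29093519-29093768, plus strand) held 2 GC boxes and no p53 decamer. Neither of the 2 windows of Cdkn2c, the gene that rose most, held a p53 decamer. The first Cdkn2c window held 3 GC boxes and the second 1 match of TTTCGCG. The Cdkn1a and Mdm2 windows shown held no TATA box, cell cycle homology region or E2F-type word. Of the 6 genes with a decamer, 4 did not pass the test. A match in a sequence says nothing on binding in these cultures.

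Per length of exons the genes spanned a wide range of levels. Ccng1 was highest in control at 44.0 ± 6.43 CPM per kb, followed by Cdkn2d at 37.3 ± 2.53, Cdkn1b at 23.8 ± 2.28 and Cdkn1a at 12.9 ± 0.46 (SD, n = 6 each). Mdm2 at 9.29, Trp53 at 7.94 and Cdkn2b at 6.75 CPM per kb came next. Cdkn2c at 4.13, Cdkn2a at 2.58 and Gadd45a at 1.51 CPM per kb were lowest. Among neighbours in this order the control libraries overlapped between Ccng1 and Cdkn2d, Mdm2 and Trp53, and Trp53 and Cdkn2b, and lay apart in the other 6 pairs. The order rests in part on the length used. Divided by the longest transcript, the control level was 22.0 CPM per kb for Cdkn1a, within the range of Cdkn1b (20.7 to 26.8), and 15.01 for Mdm2. Compared with all tested genes, Cdkn2d in control was above 94.0% of them per length and Gadd45a above 38.1%.

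In mimic the order changed at 1 place. Cdkn2c, at 8.08 ± 0.36 CPM per kb, moved above Trp53 at 7.83 ± 0.52, from which it did not lie apart, and above Cdkn2b at 4.57 ± 0.71 (SD, n = 6 each). Divided by the longest transcript it stayed below Trp53, at 8.79 against 9.67 CPM per kb. The 6 inhibitors together summed to 87.5 ± 3.28 CPM per kb in control and 92.2 ± 1.37 in mimic (SD, n = 6 each), ranges of 82.7 to 92.0 and 90.5 to 94.4 that overlapped. Within this sum Cdkn2d made up 42.6 ± 2.02% in control and 40.4 ± 1.13% in mimic, and Cdkn1b 27.3 ± 2.62% and 23.1 ± 1.35%. The share of Cdkn1a went from 14.7 ± 0.13% to 20.5 ± 0.88%, that of Cdkn2c from 4.71 ± 0.41% to 8.77 ± 0.42% and that of Cdkn2b from 7.71 ± 0.97% to 4.96 ± 0.76%. The sum and the shares depend on the length used. Divided by the longest transcript, Cdkn1a was at 22.0 CPM per kb in control and 32.2 in mimic, in place of 12.9 and 18.9. The 2 inhibitors most abundant in control, Cdkn2d and Cdkn1b, were thus without a called change.

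**Figure D3:**
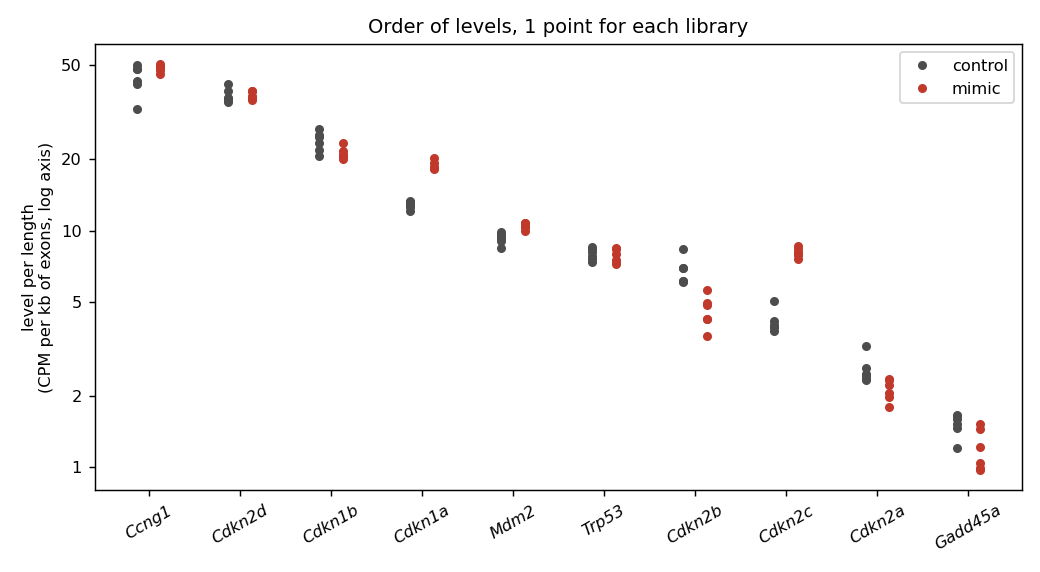
Level in CPM per kb of exons (y axis, log scale) of the 10 genes, ordered by their mean in control, with 1 point for each of 6 control (grey) and 6 mimic (red) libraries. Ccng1 and Cdkn2d lie highest in both groups, Gadd45a lowest, and Cdkn2c passes Cdkn2b in mimic.

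Other genes of the pathway were read from lists drawn up by function, with earlier results of these data known. Their counts stand beside the background of 22.2% called and a median of -0.01 over all genes. Of 32 further p53 targets, 13 were higher, 5 lower and 14 did not pass the test, with a median log2 fold change of 0.05. Among targets that averaged 100 counts or more, the largest rises were in Gtse1 at 1.05 and Psrc1 at 0.96, which encode microtubule-associated proteins of dividing cells, and in Eda2r at 0.81, a receptor of the tumour necrosis factor family, and Btg2 at 0.81, an antiproliferative factor (adjusted p at most 3.98e-05). Gtse1 went from 7.61 ± 0.81 to 15.7 ± 1.58 CPM and Btg2 from 27.1 ± 0.70 to 47.5 ± 3.28 CPM (SD, n = 6 each). Among the falls were values of -0.25 for the DNA repair factor Xpc, -0.21 for Bbc3, which encodes the death promoter PUMA, and -0.15 for the kinase gene Plk2. The call of Bbc3 (adjusted p = 0.0459) was lost when any 1 of control replicates 1, 2 and 3 or mimic replicates 1, 2, 3, 4 and 6 was left out, with an adjusted p of 0.0563 to 0.113. The death promoters Bax at 0.14 (adjusted p = 0.3) and Pmaip1 at 0.03 (adjusted p = 0.879) did not pass the test.

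Of 19 regulators of p53, 6 were higher and 1 lower, with a median log2 fold change of 0.06. The checkpoint kinases Chek1 at 0.76 and Chek2 at 0.43, the damage kinase Atm at 0.32 and the ubiquitin ligase gene Rchy1 at 0.20 had the largest rises (adjusted p at most 0.00416). Trp53bp1, which encodes a p53-binding protein of DNA repair, was lower at -0.12 (adjusted p = 0.0148). The Mdm2 relative Mdm4 had a value of 0.02 (adjusted p = 0.89).

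Of 9 genes known to act on Cdkn1b or its protein, 3 were higher and 1 lower, with a median of -0.02. Skp2 at 0.53 and Cks1b at 0.61 belong to the ubiquitin ligase that removes p27, and the transcription factor gene Foxo3 was higher at 0.35. Uhmk1, a kinase that phosphorylates p27, was lower at -0.36 (adjusted p = 0.000405). Of 12 regulators of the Ink4 genes, 2 were higher and 1 lower, with a median of 0.07. Among them were the Polycomb enzyme Ezh2 at 0.61 (adjusted p = 1.87e-07) and the transcription factor gene Ets1 at 0.39, both higher, and Id1, an antagonist of such factors, lower at -0.29 (adjusted p = 0.0148).

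Of 13 kinases, cyclins and partners that the inhibitors act on, 10 were higher, 2 were lower and Ccnd3 did not pass, with a median of 0.55. Ccnb1 rose by 1.34, Cdk1 by 1.08, Ccna2 by 1.02 and Ccnb2 by 1.00 on the log2 scale (adjusted p at most 2.22e-08); these serve the later phases of the cycle. Cdk1 went from 16.1 ± 1.25 to 34.1 ± 1.89 CPM (SD, n = 6 each). Both kinases bound by Ink4 proteins changed, Cdk4 by 0.29 (adjusted p = 6.93e-05) and Cdk6 by -0.42 (adjusted p = 0.000314). The other lower gene, Ccnd1 at -0.14 (adjusted p = 0.0461), lost its call when any 1 of control replicates 2, 4, 5 and 6 or mimic replicates 1, 2, 4, 5 and 6 was left out, with an adjusted p of 0.0506 to 0.117. Among 7 relatives of the genes described here, Gadd45g at 0.34 and Ccng2 at 0.13 (adjusted p = 0.027) were higher. The call of Ccng2 was lost without control replicate 2 or 3 or mimic replicate 1, 2 or 6, with an adjusted p of 0.0526 to 0.0707. The lower ones, Cdkn1c at -0.62 (adjusted p = 0.0114) and Trp63 at -0.36 (adjusted p = 0.0166), had 51.0 and 68.8 counts on average and are named here after their values were seen.

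**Figure D4:**
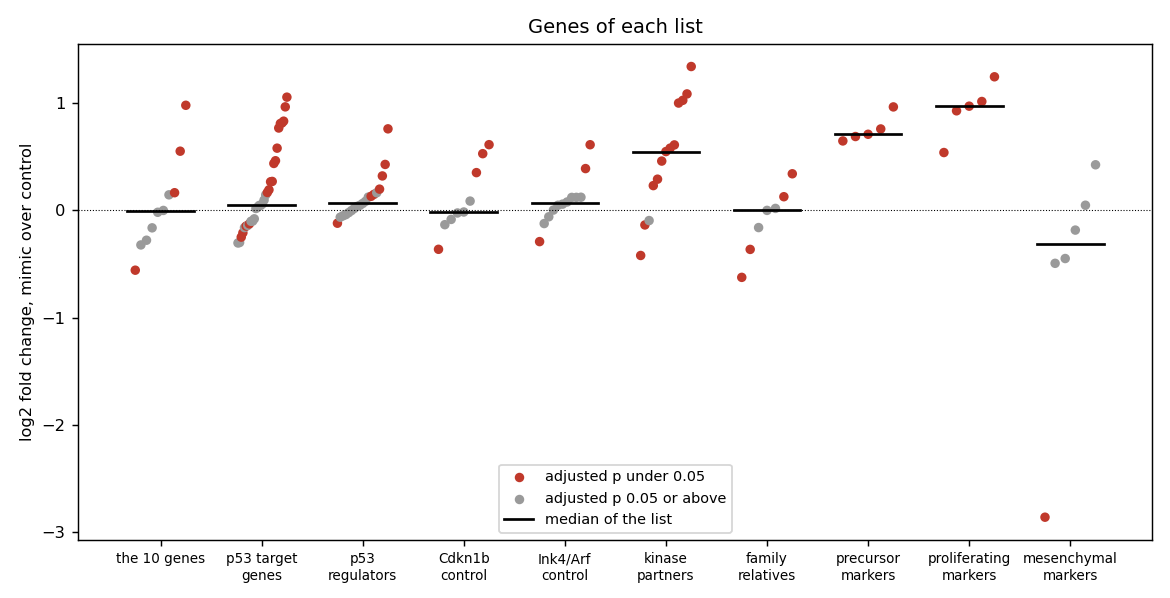
Log2 fold change of mimic over control (y axis) for each gene of the 10 described and of the lists (x axis), in red where the adjusted p was under 0.05, with a bar at each list's median; 1 p53 target is not shown. The kinase partners, the precursor markers and the proliferating cell markers lie mostly above 0, at medians of 0.55, 0.71 and 0.97, while the 10 genes lie on both sides of 0.

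Markers of proliferating cells and of some cell types changed as well. All 5 markers of proliferating cells were higher, and their summed level per length was 21.1 to 25.3 CPM per kb in control and 42.7 to 45.4 in mimic, a ratio of 1.91 beside the 1.96 of Cdkn2c and the 1.46 of Cdkn1a. All 5 markers of oligodendrocyte precursors were higher as well, and their sum was 158 to 294 CPM per kb in control and 328 to 415 in mimic. Most counts of these precursor markers were those of Olig1, at 306 to 594 CPM in control and 652 to 834 in mimic. Olig2, the next highest, had 31.4 to 41.2 CPM in control. Control replicate 1, the highest control library for Cdkn2c, held a precursor sum of 294 CPM per kb, whereas the other 5 control libraries held 158 to 174. In markers of proliferating cells the same library was the lowest of the controls, with 21.1 CPM per kb against 22.2 to 25.3. The part of these markers in the changes of Cdkn2c, Cdkn1a and the kinase partners was not tested.

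Of 6 mesenchymal markers 1 was lower, Acta2 at -2.86 (adjusted p = 0.00047), and the other 5, among them Lum at 0.05 and Dcn at 0.42, did not pass the test. Their sum was 22.5 to 35.6 CPM per kb in control and 10.4 to 22.4 in mimic. Acta2 carried most of this difference, with 2.74 to 19.0 CPM per kb in control and 1.15 to 2.92 in mimic, while the other 5 summed to 13.7 to 19.7 and 8.81 to 20.7, which overlapped. The part of these markers in the values of Cdkn2b was not tested. Of 8 astrocyte markers 5 were higher and 1 lower (sums of 673 to 707 and 640 to 712 CPM per kb). Slc1a3 at 0.99 (adjusted p = 4.23e-11) and Gfap at -0.90 (adjusted p = 5.52e-07) changed most among them, in opposite directions. Of 8 neuron markers 1 was higher, Gad2 at 0.14, and 1 lower, Tubb3 at -0.32 (adjusted p = 4.65e-06). The neuron sum was lower in every mimic library, 940 to 974 against 1020 to 1070 CPM per kb in control. Of 6 microglia markers 1 was lower (4.86 to 5.81 and 3.83 to 5.04), and of 2 tested endothelial markers 1 was lower (5.06 to 7.49 and 3.11 to 5.62). No marker was at 0 in all libraries; Cldn5, an endothelial marker, had too few counts to test.

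**Figure D5:**
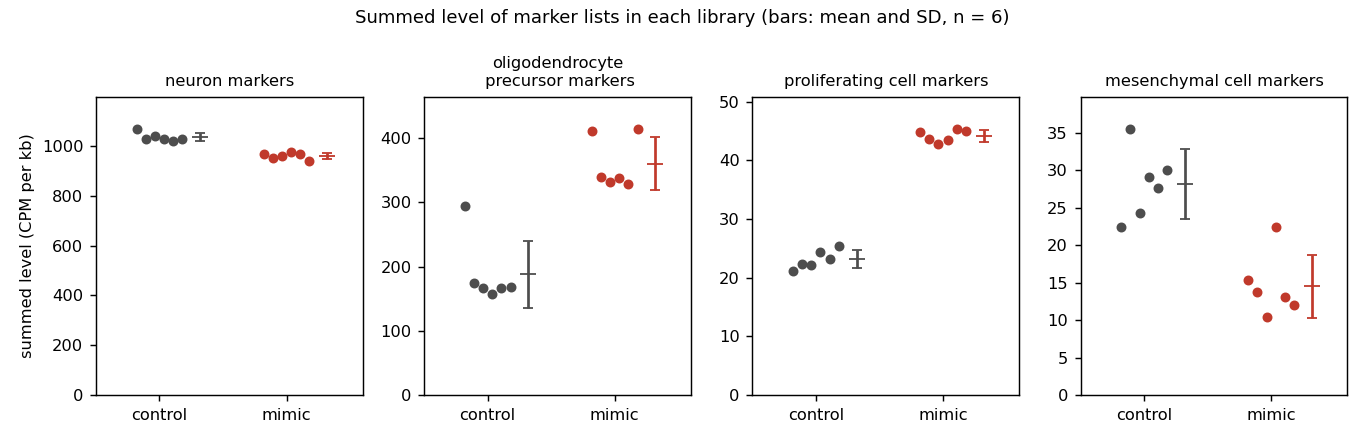
Summed level in CPM per kb (y axis, from 0) of 4 marker lists in each control (grey) and mimic (red) library, in order of replicate number, with mean and SD beside them. Precursor and proliferating cell sums lie higher in all mimic libraries. The neuron sum lies lower, at 940 to 974 against 1020 to 1070 CPM per kb. The mesenchymal sum, carried mostly by Acta2, lies lower by a margin of 22.4 against 22.5 CPM per kb. Control replicate 1 stands above the other control libraries in the precursor sum, where most counts are those of Olig1.

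Without control replicates 1 and 2 together, 3 of the 10 genes were called higher and 2 lower, since Cdkn1b then reached an adjusted p of 0.00806. The 4 called genes passed the test under each of the 20 alternatives, with log2 fold changes of 0.53 to 0.57 for Cdkn1a, 0.95 to 1.05 for Cdkn2c, 0.13 to 0.18 for Mdm2 and -0.62 to -0.49 for Cdkn2b.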

How the data were processed

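RNA of 12 samples, 6 per group by the sample titles, was sequenced by the authors from poly(A)-selected libraries as 50 bp single-end reads. Per the labels and methods, reads were aligned to mm10 with STAR 2.5.2b and counted per gene with featureCounts of Subread 1.5.1; whether the counting used the strand is not stated. The deposited counts, whole numbers for 48709 genes, were used as they are. The deposited normalized signal table, the counts divided by 1 factor per sample, served 1 alternative (limma 3.58.1, log2 with a pseudocount of 1). Names, coordinates, exon lengths and 3′ UTRs came from GENCODE M21 (GRCm38, the same build), and microRNA and promoter sequences from RefSeq (GRCm38.p6); all 10 genes had a promoter entry. The mimic and control sequences came from the study's reagent list, and it is assumed that the listed control is the one used here, which the series calls a siRNA.

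Tested were genes with 5 or more counts in 6 or more samples, with edgeR 4.0.16 (R 4.3.3, TMM factors, robust quasi-likelihood F-test, no covariate), and an adjusted p under 0.05 was called. The SE is the size of the log2 fold change over the root of F, and a 95% interval spans 1.96 SE to either side. Levels per length are CPM divided by the kb of all exons of a gene. The script was tested on simulated data. Alternatives were DESeq2 1.42.0, other scaling factors, other filters, a replicate block and leaving out libraries. The 10 genes and the lists were chosen with earlier results of these data known. Of each list other than the 10 genes and the markers, up to 4 higher and 4 lower genes with the largest change, an adjusted p under 0.05 and a mean of at least 100 counts were named; Bax, Pmaip1, Mdm4, Cdk4, Ccnd3, Cdkn1c, Trp63 and the markers were named in addition. Of the genes under this rule, the result of 1 p53 target is not reported here.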

Additional observations from a re-analysis of the deposited data

Results flagged for a closer look

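In 2 of the 20 groups of 6 libraries, 1 library lay far from the others in the level of 1 of the 10 genes, by the gap to its nearest neighbour relative to the range of the group; chance gives this in about 1 of 20 groups. Control replicate 1 held 13.58 CPM of Cdkn2c, where the next highest control library held 11.13 and the gap was 0.709 of the range. Without it the rise of Cdkn2c was 1.04 on the log2 scale in place of 0.98. Control replicate 2 held 3.824 CPM of Cdkn2a, where the next held 3.063 and the gap was 0.691 of the range. Without it the log2 fold change of Cdkn2a was -0.21 (edgeR, adjusted p = 0.143) in place of -0.28 (adjusted p = 0.0602).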

How the results depend on the processing

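The calls of Cdkn1a, Cdkn2c, Mdm2 and Cdkn2b held under all 20 alternatives, and so did the count of 3 higher among the 10 genes. The count of 1 lower was 2 with DESeq2, 3 with upper quartile factors, 2 without control replicates 1 and 2 together, and 1 to 3 when each library was left out. These additions were Cdkn1b, Cdkn2a and Gadd45a, whose values lie near the threshold. Cdkn2d changed sign around 0, with 0.0025 (DESeq2), 0.00152 (relative log expression factors), 0.00176 (no filter), 0.000638 (deposited normalized table), 0.0566 without control replicates 1 and 2, and -0.018 to 0.0318 with single libraries left out. Trp53 was 0.0245 without control replicates 1 and 2 and lay between -0.0405 and 0.00668 with single libraries left out. Neither passed the test in any of them. The cause of these shifts was not tested.

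For the lists, the p53 regulators called lower, 1, were 0 with the replicate block (Trp53bp1, adjusted p = 0.0527) and 4 without control replicates 1 and 2. The genes acting on Cdkn1b called lower, 1, were 2 without these libraries and 1 to 2 when each library was left out. The kinase partners called lower, 2, were 1 with relative log expression factors, without the filter, with the deposited table and with the replicate block, and 1 to 2 when each library was left out, since Ccnd1 lay near the threshold. The family relatives called higher, 2, were 1 with upper quartile factors, without the filter and with the replicate block, and 1 to 2 when each library was left out, since Ccng2 lay near it too. Samples share replicate numbers between the groups, but the numbers did not pair them, as the correlation of same-numbered samples ran from -0.08 to 0.182 and was the highest in 0 of 6. With the replicate block 3659 genes were called in place of 4182, and without control replicate 1 they were 5150. Divided by the longest transcript instead of all exons, Cdkn1a in mimic passed Cdkn1b, at 32.2 against 21.3 CPM per kb, and Cdkn2c stayed below Trp53. With all annotated UTRs the site counts were the same. At 52 to 107 counts a library, Cdkn2a and Gadd45a limit what can be seen, since counting error alone is 11.1% and 11.9%.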
